A study of Mus musculus with 12 samples.

Results

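The liver stores glucose as glycogen, and the 8 genes described here encode the enzymes that build and break down this store together with the proteins that switch those enzymes on and off. They are Gys2, Ugp2 and Gbe1 for synthesis, Pygl and Phka2 for breakdown, and Ppp1r3b, Ppp1r3c and Ppp1r3g, which target protein phosphatase 1 to glycogen. The genes were chosen by name, with earlier results of these data known, so the shares of called genes given below are a description. Every probe set that carries one of these symbols alone on the array was taken. All 8 were among the 13598 genes tested, with 15 of the 45101 probe sets on the array, of which 14 passed the filter on dim probe sets.

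Gene expression was measured on Affymetrix arrays in the livers of 12 male mice, 3 in each of 4 groups. The groups were wild-type mice without drug and, on a bezafibrate diet, wild-type, PPARalpha-null and Clk/Clk mutant animals. Bezafibrate, a fibrate drug that activates the nuclear receptor PPARalpha, was mixed into the diet at 0.5% (w/w) for 5 days. Wild-type and Clk/Clk mice had the Jcl:ICR background, and the PPARalpha-null mice came from the 129S4SvJae-PPARalphatm1Gonz/J line crossed with Jcl:ICR, so their background was mixed. Clk/Clk mice carry a mutation of Clock, a transcription factor of the circadian oscillator. The mice were 6 to 12 weeks old, lived under 12 h of light and 12 h of dark, and their livers were collected at Zeitgeber time 14, early in the dark phase. Both mutant groups had received the drug and neither was measured without it, so a difference in genotype cannot be told apart from a difference in the response to bezafibrate. Feeding state and liver glycogen are not given in the labels.

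In background, UDP-glucose pyrophosphorylase makes the activated glucose that glycogen synthase adds to a growing chain, and the branching enzyme introduces the branch points. Glycogen phosphorylase releases glucose units again once phosphorylase kinase has phosphorylated it. Protein phosphatase 1 reverses these phosphorylations, and its glycogen-targeting subunits bring it to the particle, where it activates the synthase and inactivates the phosphorylase. Insulin favours storage, and glucagon and adrenaline favour breakdown.

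The arrays were equalised before deposit, with medians between 5.45 and 5.5 on the log2 scale, and arrays of the same group correlated at 0.993 to 0.996 across probe sets. A gene was called when its adjusted p (limma, Benjamini-Hochberg over all genes) was below 0.05 and the change reached 1.5-fold. Rose and fell are used below for called genes. Each of the 3 Ppara probe sets was lower in every null mouse than in every wild-type mouse on the drug. The null and wild-type ranges were 9.58 to 9.78 and 9.93 to 10.36, 9.73 to 10.04 and 10.53 to 11.0, and 8.89 to 9.18 and 9.26 to 9.64. In untreated mice they read 10.50 to 10.95, 11.40 to 11.85 and 9.87 to 10.27, above treated wild type. The labels do not say whether these Ppara probe sets lie inside the altered part of the gene, so they do not settle the genotype. Clock probe sets read 9.07 to 9.37, 8.34 to 8.57 and 8.12 to 8.40 in Clk/Clk mice. In treated wild type they read 7.99 to 8.49, 7.25 to 7.76 and 7.19 to 7.49. The dimmest Clock probe set overlapped, at 5.27 to 5.84 and 5.43 to 5.69. Hepatocyte markers were present in every liver, albumin among them, and the mean level of the 7 hepatocyte markers measured was 14.05 to 14.09 in untreated mice, 13.49 to 13.60 in treated wild type, 13.81 to 13.95 in null and 13.70 to 13.78 in Clk/Clk mice. Skeletal muscle markers averaged 5.09 to 5.30, with the muscle genes Myh4 and Pygm below the filter.

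Promoter sequence was available for 6 of the 8 genes from RefSeq (GRCm38.p6). The windows of Ppp1r3c and Ppp1r3g, the genes with the largest fall and the largest rise on bezafibrate, and of Pygl are shown so that the motifs searched can be seen in place. Each line gives the 250 bases before the annotated start, 5′ to 3′ on the strand of the gene, and capitals mark every motif found. The capitals are an E-box in Ppp1r3c, a cAMP-element half-site in Ppp1r3g, and a PPAR half-site followed by a cAMP-element half-site in Pygl, both of the latter read on the opposite strand.
Ppp1r3c, chr19:36736605-36736854, minus strand: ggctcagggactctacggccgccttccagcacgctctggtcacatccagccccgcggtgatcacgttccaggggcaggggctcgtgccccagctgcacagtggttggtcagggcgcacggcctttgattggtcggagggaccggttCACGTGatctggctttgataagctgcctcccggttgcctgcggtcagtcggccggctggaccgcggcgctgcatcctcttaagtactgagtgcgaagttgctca
Ppp1r3g, chr13:35967656-35967905, plus strand: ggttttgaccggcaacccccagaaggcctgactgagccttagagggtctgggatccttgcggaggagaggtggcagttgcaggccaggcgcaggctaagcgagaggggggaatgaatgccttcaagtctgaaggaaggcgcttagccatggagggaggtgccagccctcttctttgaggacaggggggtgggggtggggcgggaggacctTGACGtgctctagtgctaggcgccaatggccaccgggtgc
Pygl, chr12:70227684-70227933, minus strand: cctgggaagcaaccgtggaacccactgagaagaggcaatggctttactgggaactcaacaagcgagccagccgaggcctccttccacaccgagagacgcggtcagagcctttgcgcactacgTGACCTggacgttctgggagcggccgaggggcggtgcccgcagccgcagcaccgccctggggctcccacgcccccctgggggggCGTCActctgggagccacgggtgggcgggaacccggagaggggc

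The E-box CACGTG, a sequence that CLOCK and its partner BMAL1 can bind, lay at positions -104 to -99 from the start of Ppp1r3c. It was present in 1 of the 7 windows of these genes (Ugp2 has 2) and in 7.15% of the 32851 promoter windows of 300 bases in the table. The half-site AGGTCA, to which nuclear receptors such as PPARalpha bind in pairs, was in the window of Pygl and in 16.3% of all windows. A direct repeat of that half-site with 1 base between (DR1) was in no window of these genes and in 0.0396% of all windows. The cAMP-element half-site TGACG was in 2 of the 7 windows and in 20.8% of all. The D-box TTATGTAA (0.938% of all windows) and the FOXO element GTAAACA (3.65%) were in none of the 7. Both strands were searched with exact letters, the half-site AGGTCA is contained in DR1, and the annotated start used for Ppp1r3g was not the outermost start of the gene in the gene table. A match describes the sequence and shows no binding.

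The first comparison asked what bezafibrate did to these genes in wild-type liver. Glycogen synthase, UDP-glucose pyrophosphorylase and the phosphatase subunits Ppp1r3b and Ppp1r3c fell, by 1.61-fold to 7.85-fold, while the phosphatase subunit Ppp1r3g rose 8.01-fold. Thus 4 of the 8 genes fell and 1 rose, against 7.77% of all 13598 genes called lower and 12.8% called higher. Pygl, Gbe1 and Phka2 were not called. The median difference over the 8 genes was -0.57 (log2), against 0.01 over all genes tested.

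**Figure D1:**
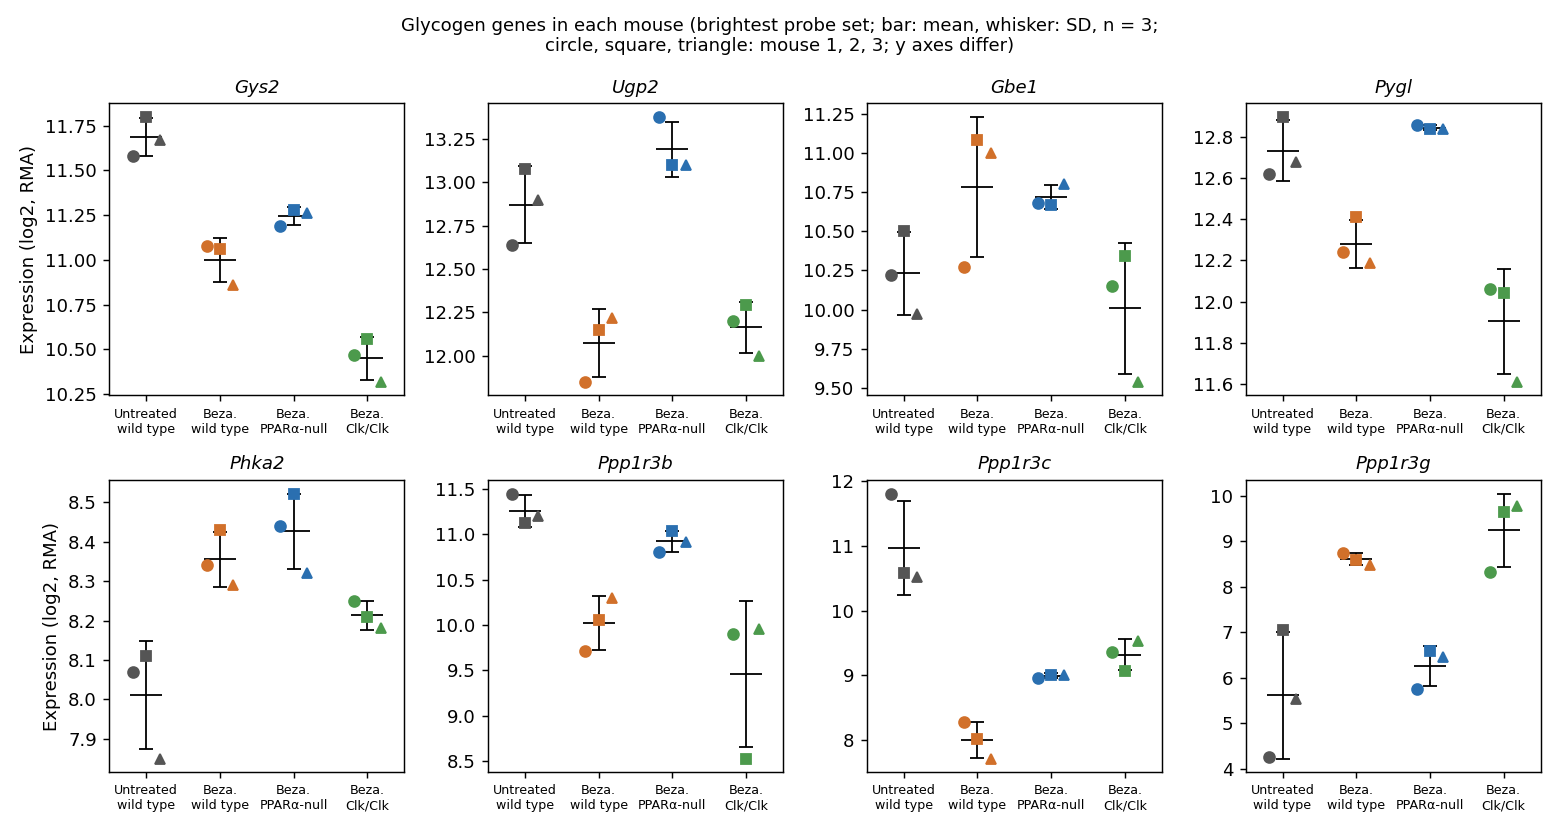
Level (log2) of each of the 8 glycogen genes in each mouse, 1 panel per gene with its own y axis, with mice as points, the group mean as a bar and the 4 groups along the x axis. Ppp1r3c was highest in the 3 untreated mice, and Ppp1r3g was higher in treated wild-type and Clk/Clk mice than in every untreated and null mouse.

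Among the synthesis genes, Gys2, the glycogen synthase of liver, measured 11.58, 11.80 and 11.67 (log2 level) in the 3 untreated mice and 11.08, 11.06 and 10.86 in the 3 treated wild-type mice. The groups did not overlap. Gys2 fell by 0.69 (SE 0.0883, log2 difference, adjusted p = 6.93e-05), or 1.61-fold. In the null mice it read 11.19, 11.28 and 11.26, between both wild-type groups. The Clk/Clk mice had the lowest levels, 10.47, 10.56 and 10.32. The order of the 4 groups was therefore untreated wild type, null, treated wild type and Clk/Clk, and no 2 neighbours in it overlapped.

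Ugp2, which makes UDP-glucose, read 12.64, 13.08 and 12.90 in untreated and 11.85, 12.15 and 12.22 in treated wild-type livers. It fell by 0.80 (SE 0.136, log2, adjusted p = 5.23e-04), or 1.74-fold, with no overlap. Null mice had 13.38, 13.10 and 13.10, above every treated wild-type mouse. They also lay above every untreated mouse, by a gap of only 0.02 in this probe set, and in 3 of the 4 other Ugp2 probe sets null and untreated mice overlapped. The Clk/Clk values of 12.20, 12.29 and 12.00 lay among those of treated wild type. UDP-glucose also feeds glucuronidation and other pathways, so Ugp2 is not specific to glycogen.

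Ugp2 was measured by 5 probe sets, which differ in brightness and share the gene as their target. All 5 fell with bezafibrate, by 0.78 to 0.93 on the log2 scale, where 8.19% of all probe sets were called lower. All 5 were higher in null than in wild-type mice on the drug, by 1.04 to 1.32, where 5.02% were called higher. None of them was called between Clk/Clk and wild type, where the differences were 0.09 to 0.31.

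Gbe1, the glycogen branching enzyme, read 10.22, 10.50 and 9.97 in untreated mice and 10.27, 11.08 and 11.0 in treated wild-type mice. The ranges overlapped because treated mouse 1 lay among the untreated animals. The difference was 0.55 (SE 0.235, log2, adjusted p = 0.0731), which did not pass the test. Without treated mouse 1 it was 0.81 with an adjusted p of 0.00941, so the count of genes called higher became 2. Null mice were tightly grouped at 10.68, 10.67 and 10.80, and Clk/Clk mice were spread at 10.15, 10.34 and 9.54.

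For breakdown, Pygl, the glycogen phosphorylase of liver, measured 12.62, 12.90 and 12.68 in untreated mice and 12.24, 12.41 and 12.19 after bezafibrate. All treated values lay below all untreated ones, but the difference of -0.45 (SE 0.121, log2, adjusted p = 0.00899) came to 1.37-fold and stayed under the fold asked. Null mice had 12.86, 12.84 and 12.84, within the untreated range. Clk/Clk mice were lowest, at 12.06, 12.04 and 11.61. From high to low the groups ran null, untreated wild type, treated wild type and Clk/Clk, with overlap between the first pair only.

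Phka2, a regulatory subunit of phosphorylase kinase found in liver, read 8.07, 8.11 and 7.85 in untreated and 8.34, 8.43 and 8.29 in treated wild-type mice. The difference of 0.34 (SE 0.082, log2, adjusted p = 0.00467) was 1.27-fold, so it was not called. The null values of 8.44, 8.52 and 8.32 and the Clk/Clk values of 8.25, 8.21 and 8.18 lay close to treated wild type. All 9 treated mice were above the 3 untreated ones. A dimmer second probe set of Phka2 gave 0.15 (log2) for the same comparison, and the remaining probe set was below the filter on every array, at 4.05 to 4.59.

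The 3 phosphatase-targeting subunits moved most. Ppp1r3c, whose product targets the phosphatase to glycogen in liver, muscle and other tissues, measured 11.81, 10.58 and 10.52 in untreated mice and 8.27, 8.01 and 7.71 in treated wild-type mice. The groups were separated by 2.25 log2 units. Ppp1r3c fell by 2.97 (SE 0.285, log2, adjusted p = 7.65e-06), or 7.85-fold. Its second, dimmer probe set fell by 2.34, from 8.60, 7.06 and 7.22 to 5.44, 5.30 and 5.12, and in both probe sets untreated mouse 1 was the highest.

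Ppp1r3b, the main hepatic glycogen-targeting subunit, also called GL, read 11.45, 11.12 and 11.20 without drug and 9.71, 10.06 and 10.30 with it in wild-type mice. It fell by 1.23 (SE 0.307, log2, adjusted p = 0.006), or 2.35-fold, and the groups did not overlap. Null values were 10.81, 11.04 and 10.92. Clk/Clk mouse 2, at 8.53, stood apart from the other Clk/Clk mice at 9.90 and 9.96.

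Ppp1r3g, a targeting subunit linked in mouse liver to the conversion of blood glucose into glycogen after a meal, went the other way. Untreated mice read 4.26, 7.04 and 5.54, and treated wild-type mice read 8.75, 8.60 and 8.49. The untreated mice differed widely among themselves while the treated ones lay close together, and the groups did not overlap. Ppp1r3g rose by 3.00 (SE 0.576, 95% interval 1.74 to 4.27, log2, adjusted p = 0.00119), or 8.01-fold. Untreated mouse 1 was below the level of the filter (4.87 to 4.92), where signal is near background, so the fold is not exact. The difference was 2.32 without untreated mouse 1 and 3.72 without untreated mouse 2, and it stayed called.

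The genes differed in how repeatable they were. The residual SD within groups was 0.837 for Ppp1r3g, 0.442 for Ppp1r3b, 0.409 for Ppp1r3c and 0.335 for Gbe1 (log2), all above the 95th percentile of the genes tested. For Ugp2 it was 0.183, for Pygl 0.159, for Gys2 0.104 and for Phka2 0.0927, against a median of 0.124 over all genes. A difference of a given size was therefore better resolved for Gys2 and Phka2 than for the phosphatase subunits.

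**Figure D2:**
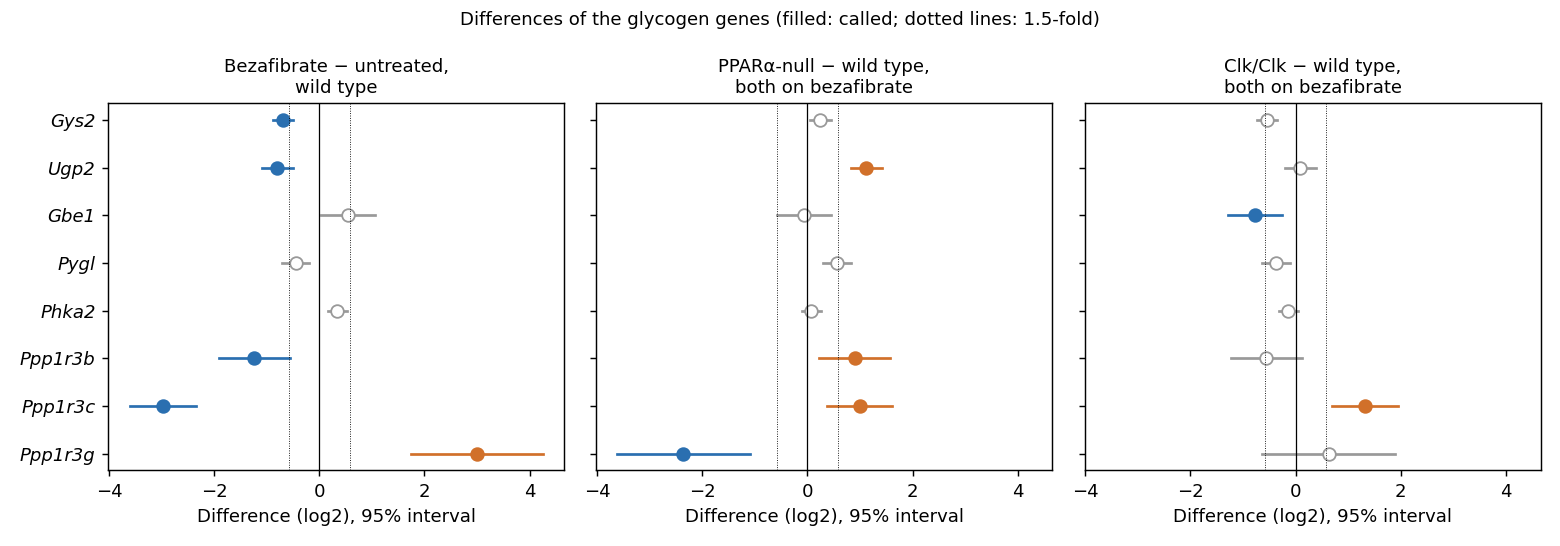
Differences in level (log2) of the 8 glycogen genes in the main comparisons, with points for the estimates and bars for their 95% intervals, coloured where called. The interval of Ppp1r3g is the widest in each comparison, and Phka2 is the gene whose difference had the same sign in the bezafibrate and the null comparison, which share the treated wild-type arrays.

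The second comparison asked how these genes differed between PPARalpha-null and wild-type mice when both ate bezafibrate. Ugp2, Ppp1r3b and Ppp1r3c were higher in the null mice and Ppp1r3g was lower. These are 3 genes called higher and 1 called lower of 8, against 5.35% and 8.09% of all genes. The treated wild-type arrays enter both this comparison and the one with untreated mice, so the opposite signs of the differences in the pair are not independent of each other.

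Ugp2 was 2.17-fold higher in the null mice, by 1.12 (SE 0.136, log2, adjusted p = 8.85e-05), with the mouse values given above and no overlap. Ppp1r3g read 5.75, 6.58 and 6.45 in null mice, below all treated wild-type values, and differed by -2.36 (SE 0.576, log2, adjusted p = 0.00849), or 5.13-fold. Its null values lay inside the broad untreated range. Both calls held whichever mouse of these groups was left out.

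The remaining calls were less secure. Ppp1r3c read 8.95, 9.01 and 9.01 in null mice and was higher by 0.99 (SE 0.285, log2, adjusted p = 0.0192), without overlap. It no longer passed once treated wild-type mouse 3 (0.85, adjusted p = 0.0640), null mouse 2 (0.98, adjusted p = 0.0510) or null mouse 3 (0.98) was left out, and the second probe set was not called (0.64, adjusted p = 0.124). Ppp1r3b was higher by 0.90 (SE 0.307, log2, adjusted p = 0.0405). Ppp1r3b no longer passed when treated wild-type mouse 1 (0.74) or 2 (0.92) or null mouse 1 (0.96), 2 (0.84) or 3 (0.90) was left out, with array weights (0.88, adjusted p = 0.0593) and with a trended, robust variance (adjusted p = 0.0618).

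Pygl was 1.48-fold above treated wild type in the null mice, by 0.56 (log2, adjusted p = 0.00402), just under the fold asked. It passed without treated wild-type mouse 2 (0.63) and with the arrays shifted to a common median (0.61). Gys2 differed by 0.25 (log2, adjusted p = 0.0492), which is 1.19-fold. For Gbe1 the difference was -0.07 (95% interval -0.58 to 0.45, log2) and for Phka2 it was 0.07 (adjusted p = 0.537), neither of which passed the test.

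Set against untreated wild type, the null mice on bezafibrate differed in 1 of the 8 genes. Ppp1r3c was lower by 1.98 (log2 difference -1.98, adjusted p = 8.22e-04), or 3.94-fold, and its second probe set differed by -1.70. Of all genes, 2.69% were called lower and 3.96% higher. Gys2 differed by -0.44 and Phka2 by 0.42 with adjusted p of 0.00519 and 0.00485, both under 1.5-fold. The differences of Pygl (0.11), Ppp1r3b (-0.33), Ugp2 (0.32) and Gbe1 (0.49) did not pass, nor did that of Ppp1r3g (0.64), which was -0.03 without untreated mouse 1. This comparison mixes genotype, strain background and drug.

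The third comparison asked how the genes differed between Clk/Clk and wild-type mice, both on bezafibrate. Ppp1r3c was higher and Gbe1 lower in the mutants, 1 gene each way of 8, against 2.64% of all genes called higher and 6.49% called lower. The Ppp1r3c values of 9.36, 9.06 and 9.53 in Clk/Clk livers were all above treated wild type and all below untreated wild type. It was higher by 1.32 (SE 0.285, log2, adjusted p = 0.00677), or 2.50-fold, and its second probe set was called as well (0.93, adjusted p = 0.0435).

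Gbe1 was 1.71-fold lower in Clk/Clk mice, by 0.77 (difference -0.77, SE 0.235, log2, adjusted p = 0.0334), although the ranges overlapped at treated wild-type mouse 1. It was no longer called when treated wild-type mouse 2 (-0.63) or 3 (-0.66) or Clk/Clk mouse 1 (-0.84) or 3 (-0.54) was left out, and when those 2 groups alone were fitted (adjusted p = 0.0911). Gbe1 rests on a single probe set, whose name carries a suffix used for probe sets that match several transcripts.

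Gys2 was lower in Clk/Clk mice by a difference of -0.55 (log2, adjusted p = 0.0014), or 1.46-fold, under the fold asked. All 3 Clk/Clk mice lay below all treated wild-type mice, and the gene passed without treated wild-type mouse 3 (-0.62) or Clk/Clk mouse 2 (-0.60). Pygl differed by -0.38 (adjusted p = 0.0402), also under the fold asked. Ppp1r3g read 8.32, 9.64 and 9.78, a difference of 0.63 with a 95% interval of -0.63 to 1.90. The interval for Ppp1r3b was -1.23 to 0.11 and that for the brightest Ugp2 probe set was -0.21 to 0.39. For the 2 dimmest Ugp2 probe sets it reached 0.63 and 0.69, which includes a difference of 1.5-fold. The 2 probe sets of Phka2 that passed the filter pointed opposite ways, at -0.14 and 0.27, and neither was called.

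Compared with untreated wild type, Clk/Clk mice on the drug had lower Gys2 (-1.23), Pygl (-0.83), Ppp1r3b (-1.79), Ppp1r3c (-1.65) and Ugp2 (-0.71) and higher Ppp1r3g (3.64, all log2). The adjusted p ran from 7.53e-07 for Gys2 to 0.00123 for Ugp2. These are 5 genes lower and 1 higher, against 8.82% and 10.6% of all genes. The 1.78-fold lower Pygl made the phosphorylase a called gene here, unlike in treated wild type, though that contrast of calls is not itself a test.

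The mutants were also set against each other, both on bezafibrate. Clk/Clk mice were lower than null mice in Gys2 (-0.79, adjusted p = 3.40e-05), Pygl (-0.94, adjusted p = 9.86e-05), Ugp2 (-1.03, adjusted p = 1.27e-04), Ppp1r3b (-1.46, adjusted p = 0.00302) and Gbe1 (-0.71, adjusted p = 0.0338). Ppp1r3g was higher by 2.99 (log2, adjusted p = 0.00174), or 7.95-fold. Of 8 genes, 5 were lower and 1 higher, against 7.78% and 7.43% of all genes. The Gbe1 call was lost without null mouse 1 (-0.73), 2 (-0.73) or 3 (-0.67) or Clk/Clk mouse 1 (-0.78) or 3 (-0.48). Ppp1r3c did not pass (0.33, adjusted p = 0.409), both mutants lying between untreated and treated wild type.

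**Figure D3:**
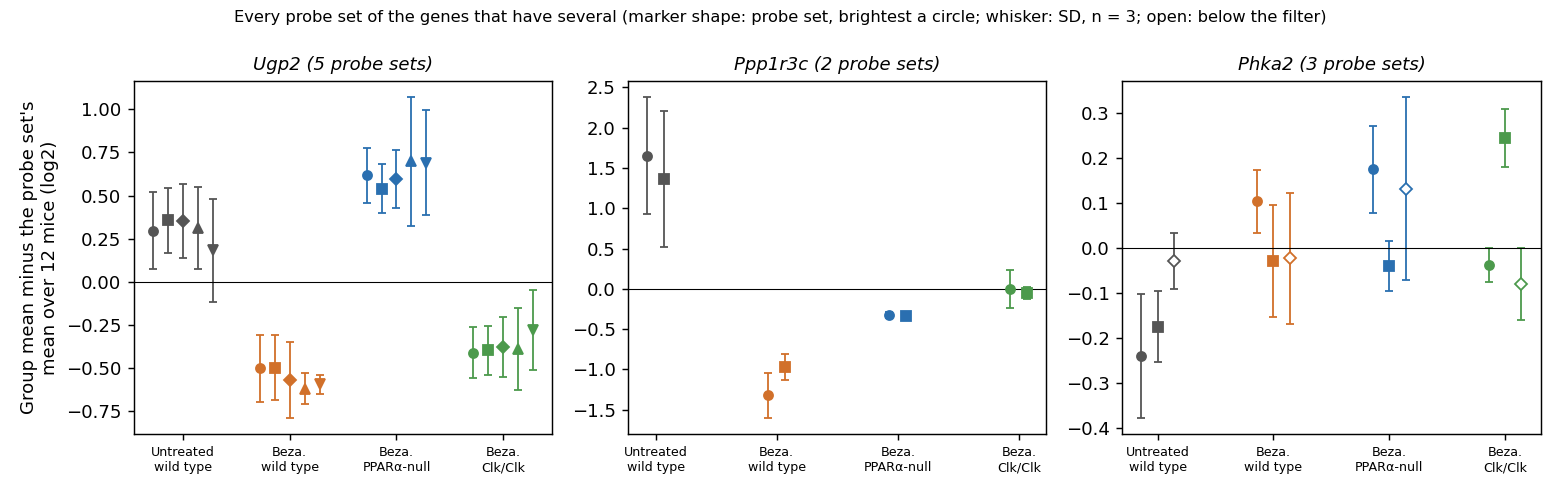
Group mean (log2) of each probe set of Ugp2, Ppp1r3c and Phka2 minus the mean of that probe set over all mice. Bars give the SD within the group, and the Phka2 probe set below the filter is included. The 5 Ugp2 probe sets differed in the same direction in each main comparison, and none was called between Clk/Clk and wild type. The 2 Phka2 probe sets that passed the filter differed in opposite directions between Clk/Clk and wild type.

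At the level of probe sets, 9 of the 14 fell and 1 rose with bezafibrate in wild type, against 8.19% and 11.9% of the 23888 probe sets with 1 symbol that passed the filter. Between null and wild type 7 were higher and 1 lower, against 5.02% and 7.78%. Between Clk/Clk and wild type 2 were higher and 1 lower, against 2.52% and 6.28%. Of the 14 probe sets 5 belong to Ugp2, and probe sets of a gene share their target and are not replicates.

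The surrounding pathway was described with gene lists written from general knowledge, with earlier results of these data known. Of 15 other genes of glycogen metabolism tested, 3 rose and 2 fell with bezafibrate in wild type, against 12.8% and 7.77% of all genes, so the shares of the list lay near the background. The median difference of the list was 0.26 (log2), against 0.01 over all genes. Gyg, or glycogenin, which primes new glycogen particles, rose by 1.37 (SE 0.135, adjusted p = 9.61e-06). Pgm2, of the phosphoglucomutase family, rose by 0.90, and Gaa, the lysosomal enzyme that degrades glycogen, by 0.85. Phkg2, the catalytic subunit of phosphorylase kinase in liver, fell by 0.60, and its difference was -0.56 and no longer called without treated mouse 2. Pgm2l1, which makes glucose 1,6-bisphosphate, fell by 0.62 and was not called without untreated mouse 2 (-0.51) or 3 (-0.52) or treated mouse 1 (-0.47).

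In null against wild-type mice this list gave 1 call, Pgm2 (-0.59), which was lost without treated wild-type mouse 1 (-0.54) or 2 (-0.56) or null mouse 1 (-0.52), after quantile normalization (-0.53) and with the arrays shifted to a common median (-0.54). Gyg differed by -0.45 (adjusted p = 0.0232), under 1.5-fold. In Clk/Clk mice the single call was Stbd1, a glycogen-binding protein, lower with a difference of -0.63, and it was lost without treated wild-type mouse 2 (-0.53) or Clk/Clk mouse 1 (-0.56) and with the arrays shifted to a common median (-0.57). The muscle phosphorylase Pygm, Phkg1, Ppp1r3a and Ppp1r3d were below the filter in these livers.

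Genes that move glucose and glucose 6-phosphate into or out of the cell's pool included 10 tested. With bezafibrate 3 fell and 1 rose, against 7.77% and 12.8% of all genes. The median difference of the list was -0.24 (log2), against 0.01 over all genes. Slc37a4, the transporter that carries glucose 6-phosphate into the endoplasmic reticulum, fell by 2.06 (SE 0.172, log2, adjusted p = 2.72e-06). Slc2a2, the glucose transporter GLUT2 of the hepatocyte membrane, fell by 1.20 (adjusted p = 0.00421), and G6pc, the catalytic subunit of glucose 6-phosphatase, fell by 0.82 (adjusted p = 0.00495). Ugdh, which draws on UDP-glucose to make UDP-glucuronate, rose by 1.36 (adjusted p = 1.24e-04). The list thus held lower genes of glucose and glucose 6-phosphate handling beside a higher gene that consumes the product of Ugp2.

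Between null and wild-type mice on the drug, Slc37a4 (1.90), Slc2a2 (1.01) and G6pc (0.88) were higher and Ugdh (-0.88) lower. These are 3 genes higher and 1 lower of 10, against 5.35% and 8.09% of all genes. Slc2a2 was not called without treated wild-type mouse 1 (0.79) or null mouse 3 (0.93). In Clk/Clk mice Slc37a4 (0.78) and G6pc (0.62) were higher, but Slc2a2 was lower by a difference of -2.13 (SE 0.282, log2, adjusted p = 4.82e-04), from a mean of 11.75 in treated wild type to 9.62. These are 2 genes higher and 1 lower of 10, against 2.64% and 6.49% of all genes. The G6pc call was lost without any 1 of the treated wild-type mice (0.59 to 0.64) or Clk/Clk mouse 2 (0.42), and that of Slc37a4 without treated wild-type mouse 1 (0.54).

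**Figure D4:**
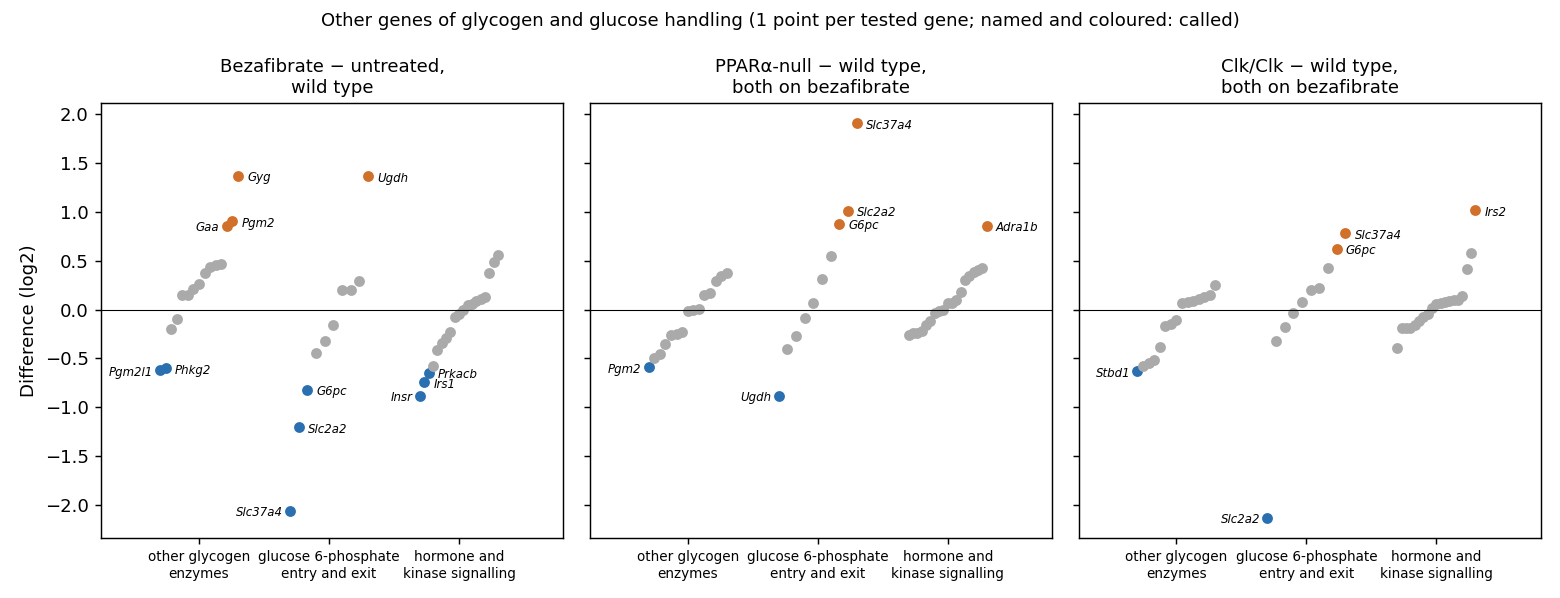
Difference in level (log2) of each tested gene of the 3 pathway lists in the main comparisons, with called genes coloured and named. Slc37a4 and Slc2a2 lay farthest below 0 among the genes of glucose entry and exit with bezafibrate, and Slc2a2 lay lowest of all listed genes in Clk/Clk mice.

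Of 19 genes of hormone and kinase signalling tested, 3 fell with bezafibrate and 0 rose, against 7.77% and 12.8% of all genes. They were Insr, the insulin receptor (-0.88, adjusted p = 1.32e-05), Irs1, an insulin receptor substrate (-0.74, adjusted p = 0.00153), and Prkacb, a catalytic subunit of protein kinase A (-0.65). Prkacb was not called without untreated mouse 1 (-0.55) or as the mean of its probe sets (-0.46). Adra1b, an adrenergic receptor, was higher in null than in wild-type mice (0.86, adjusted p = 9.58e-05), and Irs2 was higher in Clk/Clk mice (1.01, adjusted p = 7.09e-04). Each was the only call of the 19 in its comparison, where 5.35% and 2.64% of all genes were called higher. The median of the list was -0.05, 0.06 and 0.05 (log2) in these comparisons.

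The genes with the nearest profiles over the 12 arrays were listed for each glycogen gene called in a main comparison. Nearness was judged by the root mean square difference between profiles centred on their own means. Nearest to Gys2 were 3110045C21Rik (0.121), Gclm (0.125) and Vgll4 (0.139), against a median of 0.494 over all genes. Ugp2 was followed most closely by Mast3 (0.156), Lzts3 (0.158) and Slc2a5 (0.170), a fructose transporter. Lpl, or lipoprotein lipase, was nearest to Ppp1r3g (0.551), before Enc1 (0.611) and Lamb3 (0.627). For Ppp1r3c the nearest were Hal (0.530), Fgl1 (0.531) and Il1r1 (0.532), for Ppp1r3b they were Apol7a (0.326), Inhba (0.342) and Ccdc28b (0.349), and for Gbe1 they were H2-Q10 (0.160), 3000002C10Rik (0.220) and Arsb (0.222). The median over all genes was 0.528 for Ugp2, 1.68 for Ppp1r3g, 1.14 for Ppp1r3c, 0.818 for Ppp1r3b and 0.478 for Gbe1, so these differences are not comparable between the glycogen genes. A nearest profile was not always a close one. Between Clk/Clk and treated wild type, Il1r1 differed by 0.36 (log2) and Ppp1r3c by 1.32.

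Markers of other cells were read beside these results. The mean of the hepatocyte markers given above was lower in every treated wild-type mouse than in every untreated mouse. Tat (group means 13.30 untreated and 11.67 treated) and Cps1 (13.93 and 12.69) were called lower. Apoh (14.31 and 13.92) and Asgr1 (12.71 and 12.35) were lower without a call. Albumin (14.86 and 14.84), Ttr (14.67 and 14.63) and Apoa1 (14.64 and 14.56) differed little. The part of the hepatocyte markers in the differences was not tested. Kupffer cell markers averaged 7.95 to 8.22 in Clk/Clk mice and 8.41 to 8.90 in treated wild type, with Clec4f and Cd5l called lower, and their part was not tested either. Stellate cell markers averaged 8.28 to 8.44 in untreated and 7.91 to 8.06 in treated wild-type mice, with Reln and Hand2 of 6 markers called lower. Dcn was lower without a call (group means 11.95 and 11.46). Lrat (8.25 and 8.42), Des (6.82 and 6.98) and Col1a1 (5.68 and 5.99) were higher in treated mice, also without a call. The stellate list therefore did not move as a whole. Markers of sinusoidal endothelium averaged 8.52 to 8.64 in untreated and 8.12 to 8.48 in treated wild-type mice. Stab2 and Clec4g of the 5 were called lower. Kdr was lower without a call (group means 8.93 and 8.64), while Lyve1 (8.29 and 8.32) and Pecam1 (5.86 and 6.24) were higher without a call. The part of both cell types was not tested. In whole liver, fewer cells of a type and less RNA per cell cannot be told apart.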

How the data were processed

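Liver RNA of 12 mice was hybridised to Affymetrix arrays. The authors deposited log2 values for each probe set, made with RMA, per the submitters' processing notes; RMA corrects background, equalises arrays and summarises probes, and its version and settings are not given in the sources used here. All columns of the table were used. Arrays have no sequencing depth, and 3 mice per group limit the precision. Each replicate is taken as a separate mouse, as the design text counts 3 mice in each group.

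Of 45101 probe sets, 34945 have exactly 1 symbol in the platform annotation. Probe sets were kept if 3 or more arrays had them at or above the 40th percentile, and the brightest stood for its gene. Group means were fitted with limma 3.58.1 (lmFit, eBayes) in R 4.3.3 over all 12 arrays, with 8 residual degrees of freedom and no covariate, and tested on simulated data. Genes are named by a rule: the 8 members, called genes of the lists, and the 3 nearest profiles of each called member. The members and lists were chosen with earlier results of these data known. Alternatives covered normalization, filter, choice of probe set, fold, variance model, replicate block and each mouse left out. Figures were drawn with matplotlib 3.10.9.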

Additional observations from a re-analysis of the deposited data

How the results depend on the processing

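The 24 differences of the 8 genes in the main comparisons were recomputed 453 times; 418 values kept direction and call, 20 lost the call, 11 gained it and 4 changed direction, all of these 4 for differences that had not passed. Those were Gbe1 in null against wild type (-0.323 to 0.0825 with a mouse left out), Ugp2 in Clk/Clk against wild type (-0.0211 to 0.171 likewise) and Phka2 in Clk/Clk against wild type (0.0250 as the mean of its probe sets). In secondary comparisons Ppp1r3g in null against untreated mice (-0.03 without untreated mouse 1) and Gbe1 in Clk/Clk against untreated mice (0.01 without Clk/Clk mouse 3) changed sign, neither being called. With no fold asked, bezafibrate gave 2 genes higher and 5 lower, where 6649 of all 13598 genes were called in either direction. Null against wild type gave 5 higher, where 4765 of all genes were called. Clk/Clk against wild type gave 3 lower, where 3363 were called, and null against untreated gave 1 higher and 2 lower. At 2-fold, bezafibrate gave 2 lower, null against wild type 1 higher and Clk/Clk against wild type 0 lower. Of all genes, 1242, 753 and 464 were then called in either direction. Clk/Clk against untreated gave 3 lower and Clk/Clk against null 2 lower. The Clk/Clk count of genes lower than wild type was 0 when those 2 groups alone were fitted and 0 without probe sets whose names carry a suffix, which drops Gbe1. With a mouse left out, counts ran from 1 to 2 for genes higher with bezafibrate and 1 to 3 for genes higher in null. They ran from 0 to 2 for genes lower in Clk/Clk than in wild type. All genes called in either direction then ran from 2730 to 2908, 1632 to 1939 and 1071 to 1401. Over all 13598 genes tested, the calls in either direction in the main comparisons were 2798, 1827 and 1241. At the other folds all genes were counted in either direction only, and only in the main comparisons. The counts of the 8 genes in the secondary comparisons at those folds therefore have no background beside them. With no fold asked, calls with bezafibrate among the 15 other glycogen genes tested were 7 higher and 2 lower. Among the 19 signalling genes tested they were 3 higher and 8 lower. Both lists stand against 6649 of all 13598 genes called in either direction at that setting.

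Mice that share a number did not deviate together: their correlations ran from -0.09 to 0.13, with 3 of 18 above 0.1, and the own number correlated best in 15 of 36 cases. With the replicate number as a block (replicate block) bezafibrate gave 4 genes lower and 1 higher, and the calls of all 8 genes were as without it in every comparison. A common median moved an array by at most 0.054. Signal near background limits Ppp1r3g in untreated mice.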
